A study of Mus musculus with 12 samples.

Results

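Mitochondrial ribosomal protein genes were examined in interscapular brown adipose tissue (iBAT) of mice that differed in diet and housing temperature. They were taken as the protein-coding rows of the gene table whose name begins with Mrpl (49 genes, named for the large subunit) or Mrps (29 genes, named for the small subunit) followed by a number, which gave 78 of the 61210 genes listed. Total RNA of C57BL/6N wild type mice was sequenced in 12 libraries after depletion of ribosomal RNA, and all mice were 20 weeks old. The groups were a control chow (NCD) at 22 °C, NCD with 24 h at 4 °C, a high-fat diet (HFD) at 22 °C, and HFD with 24 h at 4 °C, with 3 libraries each. HFD was given for 12 weeks from 8 weeks of age, and NCD mice stayed on the chow that all mice received before. The labels name the warm groups only as room temperature, and the 22 °C is taken from the study's methods. The labels do not state that each library came from its own animal, so the p-values measure the spread between these libraries.

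The mitochondrial ribosome (mitoribosome) translates the few respiratory chain subunits that mitochondrial DNA encodes. Its ribosomal RNAs come from mitochondrial DNA as well, whereas its proteins are encoded in the nucleus, made in the cytosol and imported. The large subunit forms the peptide bond and the small subunit decodes the message. Brown adipocytes are rich in mitochondria, whose respiratory chain drives the heat production that UCP1 makes possible. Members fall into homologues of bacterial ribosomal proteins (45 genes) and proteins that the mitochondrial ribosome acquired (31 genes), while Mrpl55 was left unclassified and Mrps36 belongs to neither class. The name does not always give the place in the ribosome. Mrps18a and Mrps30 sit in the large subunit in resolved structures, and Mrps36 is a component of the oxoglutarate dehydrogenase complex, so that the structural count was 51 large and 26 small subunit genes. The transcripts of mitochondrial DNA were not analysed here.

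All 78 genes passed the filter on low counts, as did 16737 genes in all, and the lowest count of any member in any library was 243. Libraries held 15136861 to 46740702 counts, of which the members took 0.370% to 0.489%. Replicates 1 and 2 of each group were labelled batch 1 and replicate 3 batch 2. Each of the 8 brown adipocyte markers was detected, and their summed level, in CPM (counts scaled to library size, with TMM factors), was 6419 to 7993 on NCD at 22 °C, 20161 to 23441 on NCD at 4 °C, 8513 to 10926 on HFD at 22 °C and 15810 to 19389 on HFD at 4 °C. Skeletal muscle transcripts varied strongly within groups. The summed level of 12 muscle genes was 5105 to 34604 CPM on NCD at 22 °C, 2032 to 19870 on NCD at 4 °C, 4038 to 61086 on HFD at 22 °C and 1180 to 10176 on HFD at 4 °C, with none of the 12 at 0. In bulk tissue, fewer cells of a type and less RNA per cell cannot be told apart.

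Promoter windows of RefSeq (GRCm38.p6, 250 bases before to 50 bases after each start) were given for 69 of the 78 genes, as 75 windows. They were searched on both strands for the letters CCGGAAG (the core bound by ETS factors such as GABPA, also known as NRF2), GCGCATGCG (NRF1), AAGATGGCG (YY1) and TCAAGGTCA (estrogen-related receptors), which are named as activators of nuclear genes for mitochondrial proteins. The ETS letters were present in 26 member windows (34.7%) and in 8.86% of all 32851 windows, or 12.1% of those of protein-coding genes. The NRF1 letters were present in 7 (9.33%, all windows 1.75%, those of protein-coding genes 2.53%). The YY1 letters were present in 8 (10.7%, all windows 1.40%, those of protein-coding genes 1.98%). The letters for estrogen-related receptors were present in 0 (all windows 0.423%, those of protein-coding genes 0.324%). The median share of G and C was 58.7% in member windows, 52.7% in all windows and 57.3% in those of protein-coding genes. No matches of different motifs overlapped. Of the 31 ETS matches, 28 began no more than 100 bases before the start. Among the 18 genes that passed a test in any contrast described below, all with a listed window, 5 had a match to any of the motifs. The 34.7% above is a share of windows with the ETS letters only, so it cannot be set against this count of genes with any motif. The share of all members with any match is not given here. The 5 genes are shown, 5′ to 3′ on the strand of the gene, with the matching letters in capitals. A match describes the letters only, and its relation to the changes below was not tested.

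Mrpl43 (chr19:45006482-45006508, minus strand): cgcggtgactCCGGAAGcaaaactctc
Mrpl43 (chr19:45006438-45006464, minus strand): aaccccggaaCCGGAAGtcaccggtta
Mrps23 (chr11:88204393-88204419, plus strand): gccgcttccgCTTCCGGtaacagcccg
Mrpl53 (chr6:83109039-83109065, plus strand): cgcggagccgCCGGAAGcggtccgttc
Mrpl53 (chr6:83109082-83109108, plus strand): agtgctactcCTTCCGGggtggaggta
Mrps18b (chr17:35916646-35916674, minus strand): aacggcccgaCGCATGCGCactgggagca
Mrps18b (chr17:35916391-35916407, minus strand): cgcagtcgctCTTCCGG
Mrpl35 (chr6:71823743-71823771, minus strand): ggcaggctgcAAGATGGCGgcttccatct

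The Mrpl43, Mrps23 and Mrpl53 windows show the ETS letters, read on the opposite strand in Mrps23 and in the second of Mrpl53. The first Mrps18b window shows the NRF1 letters and the second the ETS letters at the end of the promoter window, both on the opposite strand, and the Mrpl35 window shows the YY1 letters, which lie 24 to 32 bases into the transcript. Many members also share their start region with another gene. In the GENCODE M21 annotation of GRCm38, 18 of the 78 genes (23.1%) had a protein-coding gene on the opposite strand that starts within 1000 bases upstream, compared with 6.78% of 21951 protein-coding genes. Members were short, with a median longest coding transcript of 1328 bases, where all protein-coding genes had 2683.

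Levels differed widely between members. Over all libraries and per kb of the longest coding transcript, the highest were Mrpl42 (192 CPM per kb), a protein without a bacterial counterpart, Mrps36 (164 CPM per kb) and Mrps21 (158 CPM per kb), a bacterial homologue. The lowest were Mrps25 (5.97 CPM per kb), Mrps26 (6.45 CPM per kb) and Mrpl19 (7.63 CPM per kb). The median was 38.2 CPM per kb for genes named for the large subunit and 33.7 CPM per kb for those of the small subunit. The order depended on the length used. With the union of all annotated exons, Mrps36 and Mrps21 stayed among the 3 highest and Mrps25 among the 3 lowest, whereas Mrpl42 moved to rank 19.

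**Figure D1:**
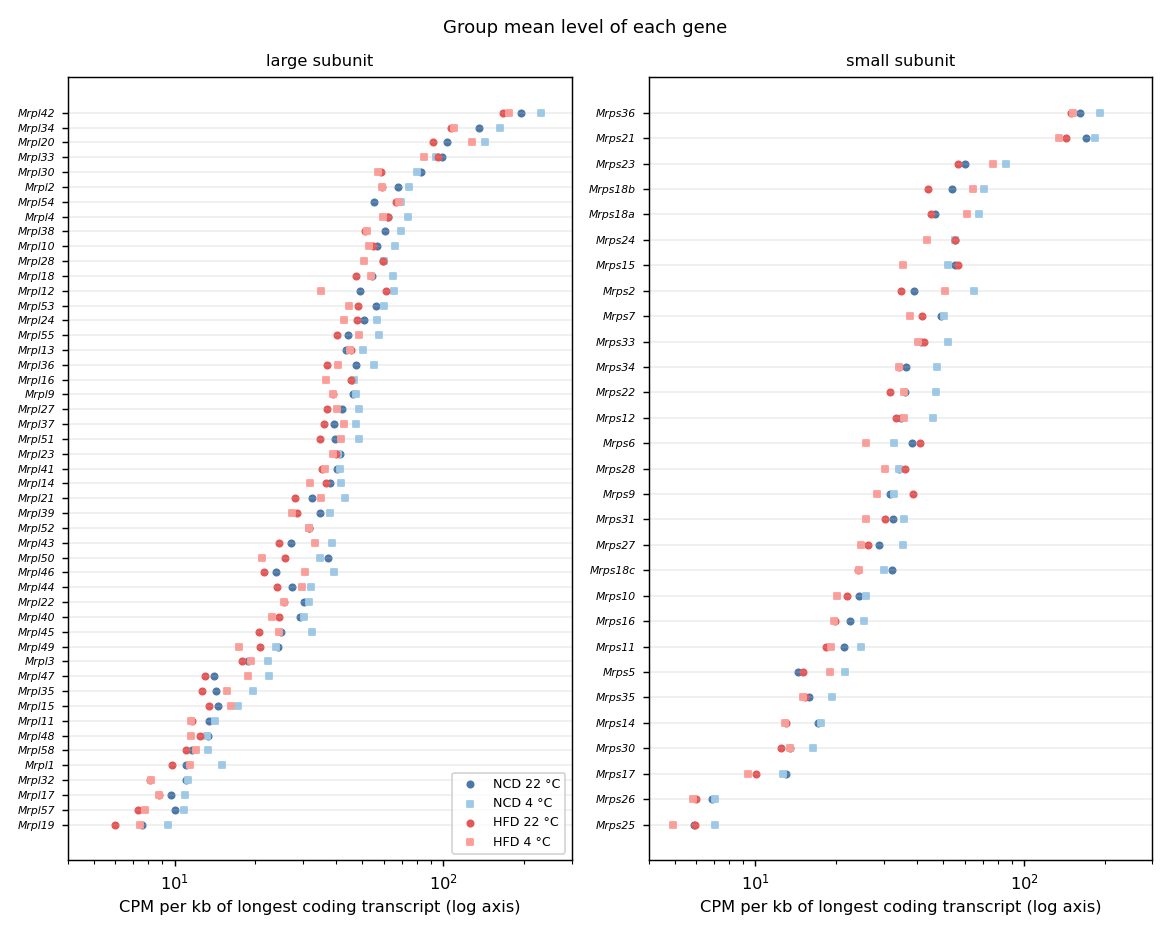
Group mean level of each of the 78 genes, in CPM per kb of the longest coding transcript on a log axis, for the large subunit (left) and the small subunit (right) by gene name, with one symbol for each of the 4 groups (3 libraries each). Levels span from 5.97 (Mrps25) to 192 (Mrpl42) CPM per kb as the mean of all libraries, and the 4 groups of a gene lie close together on that range.

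Both subunits had their highest mean level in the cold on NCD. The summed level of the 49 large subunit genes was 2781 ± 202 CPM on NCD at 22 °C, 3223 ± 247 on NCD at 4 °C, 2474 ± 161 on HFD at 22 °C and 2572 ± 253 on HFD at 4 °C (SD, n = 3). For the 29 small subunit genes the sums were 1514 ± 103, 1803 ± 139, 1399 ± 113 and 1426 ± 143 CPM in the same order (SD, n = 3). The ratio of the large to the small sum was 1.84 ± 0.0096, 1.79 ± 0.031, 1.77 ± 0.032 and 1.80 ± 0.019 (SD, n = 3).

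The medians per library show the same order and its exceptions. Each gene was set to its own mean over the 12 libraries on the log2 scale, and the median over the 78 genes was taken. It was 0.14, -0.06 and -0.02 on NCD at 22 °C, 0.21, 0.11 and 0.35 on NCD at 4 °C, -0.07, -0.09 and -0.27 on HFD at 22 °C, and -0.30, 0.03 and -0.10 on HFD at 4 °C, for replicates 1 to 3. All HFD libraries at 4 °C were thus below all NCD libraries at 4 °C. Before TMM scaling, the members' share of counts overlapped between these groups (0.408% to 0.470% on HFD, 0.441% to 0.489% on NCD). Replicate 1 on NCD at 22 °C overlapped the NCD libraries at 4 °C in the medians. The lowest libraries were replicate 1 on HFD at 4 °C, which held the fewest muscle transcripts, and replicate 3 on HFD at 22 °C, which held the most.

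**Figure D2:**
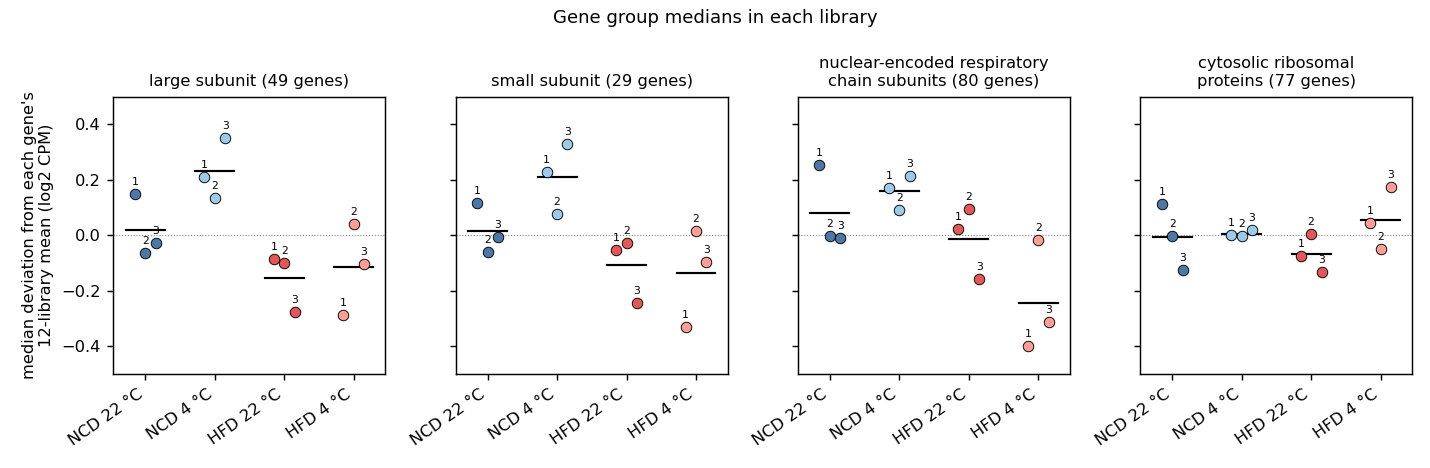
Median deviation from each gene's mean over the 12 libraries (log2 CPM, vertical axis) for the large subunit, the small subunit, nuclear-encoded respiratory chain subunits and cytosolic ribosomal proteins, by group. Points are libraries with their replicate number and bars are means of 3. For both subunits the NCD 4 °C libraries lie above the HFD 4 °C libraries. The panel of respiratory chain subunits shows the same order, and that of cytosolic ribosomal proteins does not.

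Cold on NCD asked how the tissue of lean mice responded to 24 h at 4 °C. Calls used edgeR's quasi-likelihood test at a Benjamini-Hochberg adjusted p under 0.05. Of the 78 genes, 9 rose (11.5%, where 4.74% of all 16737 genes tested rose) and 0 fell (2.68% of all genes). Of the 13196 protein-coding genes tested, 731 rose and 393 fell. At an unadjusted p under 0.05, 24 of the 78 passed, where 21.9% of all genes did, and DESeq2 called 13 higher (7.14% of all genes) and 0 lower. The fitted change was above 0 for 67 of the 78 genes (85.9%, 49.0% of all genes), with a median log2 fold change of 0.20, compared with -0.01 for all genes. In 26 genes all 3 libraries at 4 °C were above all 3 at 22 °C (15.2% of all genes did so), and in 0 they were below (12.6%). Fold changes are given as log2 values ± SE of the fit. The large subunit gave 6 of the 9 calls (Mrpl1, Mrpl35, Mrpl43, Mrpl46, Mrpl47 and Mrpl55) and the small subunit 3 (Mrps2, Mrps5 and Mrps23). The median was 0.20 for the large and 0.22 for the small subunit, or 0.20 and 0.16 with the subunits of the structure.

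Mrpl47, the homologue of a bacterial protein at the exit of the peptide tunnel, had the smallest adjusted p. Its level was 50.4, 46.0 and 45.6 CPM at 22 °C and 77.5, 70.8 and 78.5 CPM at 4 °C. No library of the cold group came near those at 22 °C, and the log2 fold change was 0.68 ± 0.10 (adjusted p = 0.00298). Mrpl46, an acquired protein of the large subunit, was at 25.3, 26.7 and 29.1 CPM at 22 °C and at 39.2, 44.9 and 49.4 CPM at 4 °C. The groups did not overlap, with a log2 fold change of 0.72 ± 0.12 (adjusted p = 0.00515). Mrps23, an acquired protein of the small subunit, rose by 0.51 ± 0.09 on the log2 scale (adjusted p = 0.0101), from 85.7, 80.0 and 87.9 CPM to 120.2, 112 and 129 CPM. These 3 genes were called in each of the 12 fits that left out 1 library, and the other 6 in fewer.

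Mrps2, the homologue of a bacterial small subunit protein, showed the largest fitted change of all members. It was at 88.3, 81.2 and 72.6 CPM at 22 °C and at 147, 134 and 125 CPM at 4 °C, a log2 fold change of 0.75 ± 0.16 (adjusted p = 0.0169). Again every cold library was above every library at 22 °C. Mrpl43, an acquired large subunit protein, was at 36.9, 35.3 and 41.1 CPM at 22 °C and at 53.0, 50.8 and 57.2 CPM at 4 °C, a log2 fold change of 0.51 ± 0.10 (adjusted p = 0.0127). Mrps5, which lines the entry of the messenger RNA in bacteria, rose by 0.59 ± 0.12 (adjusted p = 0.0169). Mrpl35 (0.46 ± 0.11, adjusted p = 0.0258), Mrpl55 (0.39 ± 0.09, adjusted p = 0.0282) and Mrpl1 (0.44 ± 0.12, adjusted p = 0.0467), whose bacterial homologue forms the stalk at the exit of spent tRNAs, completed the list. Of the 12 fits without 1 library, Mrpl43 was called in 10, Mrps5 in 9, Mrps2 in 8, Mrpl35 and Mrpl55 in 6 each, and Mrpl1 in 1. With a block on the replicate number within diet, Mrpl1 and Mrpl55 no longer passed (adjusted p = 0.0522 for each), and Mrps18a passed (log2 fold change 0.53, adjusted p = 0.0153).

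The lowest fitted values in the cold on NCD were those of Mrps6 (-0.22, adjusted p = 0.383), Mrpl50 (-0.10, adjusted p = 0.766) and Mrps18c (-0.10, adjusted p = 0.751), none of which passed the test. Within batch 1 the median difference over the 78 genes was 0.11, and between the single libraries of batch 2 it was 0.34. The number that rose was 3 without replicate 2 on NCD at 22 °C, 4 without replicate 3 of that group and 5 without replicate 3 on NCD at 4 °C. Shares of all genes called in those fits are not given here. In batch 1 alone 2 rose (Mrpl47 and Mrps2, with 1.41% of all genes rising). When the library with the most muscle transcripts was left out of each group, 1 gene remained (Mrpl47), with 1.05% of all genes rising, and the subunit medians were 0.19 and 0.22. The 12 muscle genes had fitted changes below 0 in this contrast (median -0.98), with 0 called. Of the other markers, 8 of 8 brown adipocyte (median 1.19, 4 called), 4 of 4 endothelial (median 0.40, 1 called) and 5 of 6 adipocyte genes (median 0.14, 2 called) had changes above 0. Changes were below 0 for 5 of 7 immune (median -0.14, 0 called), 4 of 4 nerve (median -0.47, 0 called) and 4 of 5 erythroid genes (median -0.09, 0 called). The part of these markers in the result was not tested. With the muscle marker score as a term of the fit, 8 genes rose (4.54% of all genes).

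**Figure D3:**
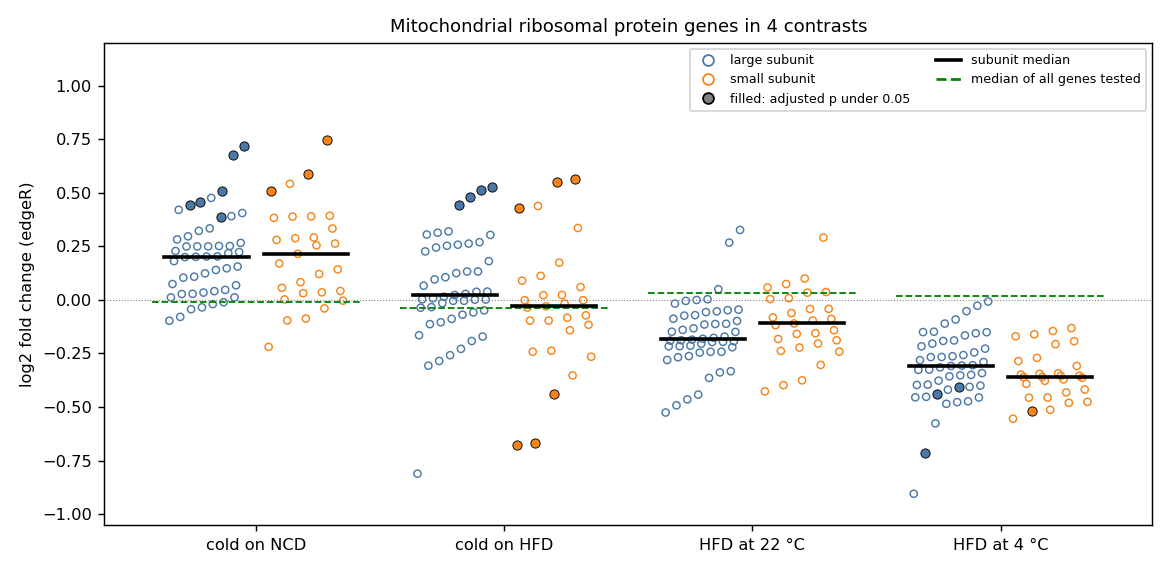
Log2 fold change (vertical axis) of each of the 78 genes in the 4 contrasts, by subunit. Filled points passed an adjusted p under 0.05 in edgeR, black bars are subunit medians and green dashed lines the medians of all 16737 genes tested. On NCD the cold medians (0.20 and 0.22) lie above 0, on HFD they lie near 0, and at 4 °C all 78 HFD points lie below 0.

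Cold on HFD asked the same of mice with diet-induced obesity. Here 7 genes rose (6.90% of all genes did, members 8.97%) and 3 fell (4.57% of all genes, members 3.85%). Of the 13196 protein-coding genes tested, 1094 rose and 596 fell. The fitted change was above 0 for 41 of the 78 genes (52.6%, all genes 46.3%), and the median was 0.00, compared with -0.04 for all genes. In 17 genes the cold libraries were all above the warm ones (15.9% of all genes) and in 8 all below (14.4%). The genes that rose were Mrpl20, Mrpl43, Mrpl46, Mrpl47, Mrps2, Mrps18b and Mrps23, while those that fell were Mrps6, Mrps9 and Mrps15, homologues of bacterial small subunit proteins. The median was 0.02 for the large and -0.03 for the small subunit. A test of the difference between the subunits was not run, since genes are not replicates.

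The same 5 genes rose on both diets: Mrpl43, Mrpl46, Mrpl47, Mrps2 and Mrps23 (6.41% of the members, 3.18% of all genes). Mrpl47 was at 46.6, 46.1 and 38.5 CPM on HFD at 22 °C and at 59.4, 65.0 and 64.6 CPM on HFD at 4 °C. The groups did not overlap, and the log2 fold change was 0.53 ± 0.10 (adjusted p = 0.00706). The other 4 had no overlap either, with log2 fold changes of 0.51 for Mrpl46 (SE 0.12, adjusted p = 0.0172), 0.44 for Mrpl43 (SE 0.10, adjusted p = 0.0174), 0.43 for Mrps23 (SE 0.09, adjusted p = 0.0155) and 0.55 for Mrps2 (SE 0.16, adjusted p = 0.0453). The fitted interaction of the 5 lay between -0.21 (Mrpl46, adjusted p = 0.862) and -0.06 (Mrpl43, adjusted p = 0.959), and none passed its test. Of the 12 fits without 1 library, Mrpl47 was called in all, Mrpl43, Mrpl46 and Mrps23 in 10 each, and Mrps2 in 5, with log2 values from 0.38 to 0.70 for Mrps2. Without replicate 3 on HFD at 22 °C, or without replicate 3 on HFD at 4 °C, Mrpl47 was the only one of the 5 still called on HFD.

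Mrps18b, one of a set of paralogues that occupy different places in the ribosome, was at 51.9, 45.7 and 44.0 CPM on HFD at 22 °C and at 73.6, 63.8 and 71.9 CPM at 4 °C. Its groups did not overlap, and it rose by 0.56 ± 0.12 on the log2 scale (adjusted p = 0.0140). The paralogue of the large subunit, Mrps18a, had 0.44 ± 0.16 (adjusted p = 0.0943), and passed with the block on the replicate number (adjusted p = 0.0203). The third paralogue, Mrps18c, had 0.02 ± 0.13 (adjusted p = 0.932). Mrpl20, a bacterial homologue needed early in assembly of the large subunit in bacteria, rose by 0.48 ± 0.13 (adjusted p = 0.0378), and its adjusted p was 0.0580 with the block.

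Mrps6, which binds next to the central domain of the small ribosomal RNA in bacteria, was at 37.7, 33.4 and 33.0 CPM on HFD at 22 °C and at 21.2, 23.2 and 21.1 CPM at 4 °C. The groups were far apart, with a log2 fold change of -0.67 ± 0.13 (adjusted p = 0.00958), and the call held in each of the 12 fits without 1 library. Mrps6 shares 159 exon bases, 10.4% of its exon bases, with Slc5a3, the sodium and myo-inositol cotransporter that is annotated within the span of Mrps6 on the same strand. Slc5a3 was itself lower in the cold on HFD, with 305, 277 and 252 CPM at 22 °C and 107, 107 and 76.0 CPM at 4 °C (log2 fold change -1.52 ± 0.16, adjusted p = 0.000354). A further 305 exon bases (19.9%) are shared with Gm49711, a protein-coding gene on the same strand that did not pass the filter on low counts. Reads in shared bases were divided between transcripts by estimation, and their part in the value of Mrps6 was not tested.

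Mrps15, a primary binder of the small ribosomal RNA in bacteria, was at 59.3, 54.7 and 45.0 CPM on HFD at 22 °C and at 29.8, 38.2 and 31.4 CPM at 4 °C. The log2 fold change was -0.68 ± 0.15 (adjusted p = 0.0174), without overlap. Mrps9 was at 51.1, 54.7 and 58.4 CPM on HFD at 22 °C and at 36.6, 43.1 and 41.4 CPM at 4 °C, again without overlap (log2 fold change -0.44 ± 0.11, adjusted p = 0.0247). On NCD these genes had changes of -0.09 (Mrps15, adjusted p = 0.811), 0.06 (Mrps9, adjusted p = 0.831) and -0.22 (Mrps6, adjusted p = 0.383) in the cold. The difference between the diets did not pass the interaction test for Mrps15 (-0.59, adjusted p = 0.692), Mrps9 (-0.50, adjusted p = 0.601) or Mrps6 (-0.45, adjusted p = 0.741).

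The lowest fitted value in the cold on HFD was that of Mrpl12, which forms the flexible stalk that receives translation factors and has also been described as a partner of the mitochondrial RNA polymerase. It was at 82.1, 59.2 and 101 CPM at 22 °C and at 29.8, 48.8 and 59.5 CPM at 4 °C, and on NCD at 49.5, 52.2 and 91.5 CPM and at 122, 39.3 and 97.5 CPM. The libraries overlapped and the spread was the widest of all members, so that the log2 fold change of -0.81 (SE 0.40) had an adjusted p of 0.217. Its neighbours in the stalk, Mrpl10 (-0.05 ± 0.16, adjusted p = 0.870) and Mrpl11 (-0.02 ± 0.10, adjusted p = 0.940), had values near 0.

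Of the 7 genes, 4 had a change over 0.5 on the log2 scale (5.39% of all genes), and 2 rose when only the libraries of the contrast were fitted (3.49% of all genes). The batches differed in this contrast. The median over the 78 genes was -0.07 within batch 1 and 0.21 between the single libraries of batch 2, which contain the warm library with the most muscle transcripts. In batch 1 alone 0 genes passed in either direction (1.56% of all genes rose and 0.953% fell). Without replicate 3 on HFD at 22 °C, or without replicate 3 on HFD at 4 °C, 1 gene rose. The shares of all genes called without those libraries are not given here. Without replicate 1 on HFD at 4 °C the small subunit median was 0.12. Without the most muscle-rich library of each group 0 rose and 1 (Mrps6) fell, with 2.25% and 2.14% of all genes, and the medians were -0.03 for the large and -0.12 for the small subunit. All 12 muscle genes had fitted changes below 0 (median -1.89, 0 called), as did 4 of 6 adipocyte genes (median -0.10, 1 called lower), 4 of 7 immune genes (median -0.04, 1 called higher) and 3 of 4 nerve genes (median -0.28, 1 called lower). Changes were above 0 for 6 of 8 brown adipocyte (median 0.71, 3 called), 3 of 4 endothelial (median 0.23, 0 called) and 5 of 5 erythroid genes (median 0.32, 0 called). The part of these cell types in the result was not tested.

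**Figure D4:**
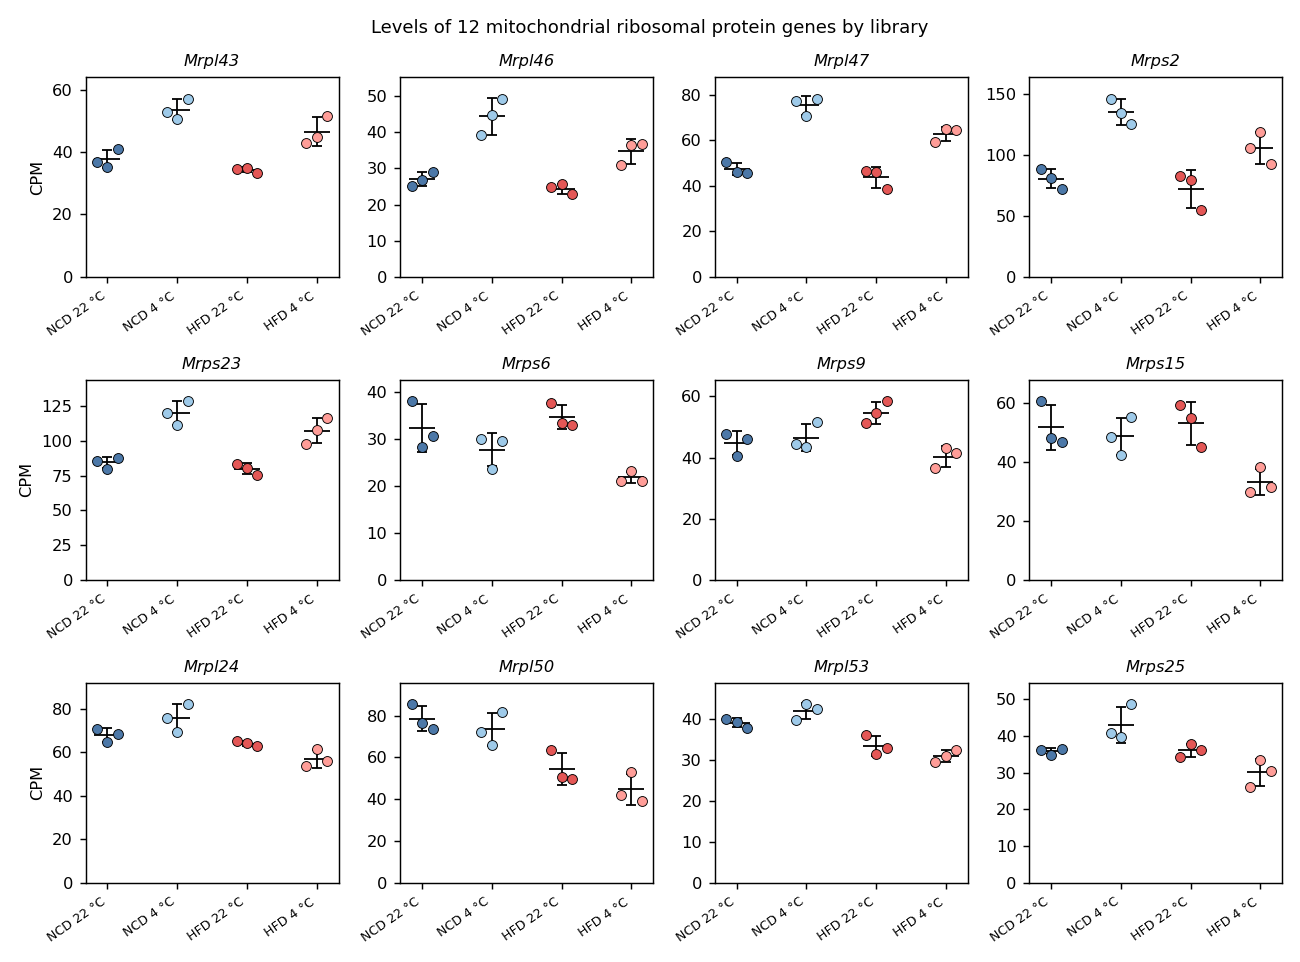
Levels in CPM (vertical axis, from 0) of 12 genes in the 4 groups, with points for libraries and bars for mean ± SD (n = 3). Mrpl43, Mrpl46, Mrpl47, Mrps2 and Mrps23 rose in the cold on both diets, Mrps6, Mrps9 and Mrps15 fell in the cold on HFD, and Mrpl24, Mrpl50, Mrpl53 and Mrps25 were lower on HFD at 4 °C.

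HFD at 22 °C asked for the effect of the diet alone. In edgeR 0 genes rose (1.01% of all genes) and 0 fell (1.15% of all genes) at an adjusted p under 0.05, while 13 had an unadjusted p under 0.05 (18.1% of all genes) and DESeq2 called 5 lower (3.59% of all genes): Mrpl19, Mrpl30, Mrpl50, Mrpl57 and Mrps18c. The fitted change was below 0 for 66 of the 78 genes (45.9% of all genes), with a median of -0.15, compared with 0.03 for all genes. The members' unscaled share of counts was 0.415%, 0.376% and 0.394% on NCD and 0.414%, 0.434% and 0.370% on HFD. TMM factors were higher in all HFD libraries than in all NCD libraries, and the part of this in the result was not tested. In 24 genes all HFD libraries were below all NCD libraries (12.9% of all genes), and in 1, Mrps9, all were above (13.0%). The median was -0.18 for the large and -0.11 for the small subunit. The lowest fitted values were those of Mrpl50 (-0.53 ± 0.14, adjusted p = 0.0853), Mrpl30 (-0.49 ± 0.14, adjusted p = 0.0965) and Mrpl57 (-0.46 ± 0.13, adjusted p = 0.0967), and these 3 passed when the muscle marker score was a term of the fit, where 1.79% of all genes were lower. The highest were Mrpl12 (0.33, adjusted p = 0.725), Mrps9 (0.29, adjusted p = 0.191) and Mrpl54 (0.27, adjusted p = 0.238). The median was -0.10 within batch 1 and -0.24 between the single libraries of batch 2. Among the markers, 5 of 8 brown adipocyte (median 0.37, 1 called), 4 of 4 endothelial (median 0.50, 1 called) and 7 of 7 immune genes (median 0.33, 0 called) had changes above 0. Changes were below 0 for 5 of 5 erythroid (median -0.65, 0 called), 6 of 6 adipocyte (median -0.07, 0 called), 8 of 12 muscle (median -0.04, 0 called) and 3 of 4 nerve genes (median -0.33, 0 called), and the part of these cell types was not tested.

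HFD at 4 °C asked for the effect of the diet in the cold, and its reference group is the cold group on NCD, so it shares libraries with both cold contrasts. In edgeR 0 genes rose (2.23% of all genes) and 4 fell (5.13% of the members, 3.07% of all genes), namely Mrpl24, Mrpl50, Mrpl53 and Mrps25. Of the 13196 protein-coding genes tested, 352 rose and 455 fell. The fitted change was below 0 for all 78 genes (48.2% of all genes), with a median of -0.34, compared with 0.02 for all genes. TMM factors were 0.896 to 0.952 in NCD libraries and 1.03 to 1.15 in HFD libraries of both temperatures. As an unscaled share of counts, the members took 0.450%, 0.441% and 0.489% on NCD and 0.408%, 0.469% and 0.470% on HFD, which overlap. The part of this difference in scaling in the result was not tested. In 45 genes every HFD library was below every NCD library (13.1% of all genes), and 47 had an unadjusted p under 0.05 (22.7% of all genes). DESeq2 called 24 lower (6.94% of all genes). The median was -0.31 for the large and -0.36 for the small subunit, with all 49 and all 29 genes below 0. The median was -0.29 within batch 1, with 76 of 78 below 0, and -0.40 between the single libraries of batch 2, with 78 of 78 below 0.

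Mrpl50, an acquired protein of the large subunit, was at 72.3, 66.0 and 81.9 CPM on NCD at 4 °C and at 42.1, 53.2 and 39.1 CPM on HFD at 4 °C. The groups did not overlap, and the log2 fold change was -0.71 ± 0.14 (adjusted p = 0.0184). Zfp189, a zinc finger gene that starts 83 bases upstream of Mrpl50 on the opposite strand, was also lower on HFD at 4 °C (-1.28 ± 0.23, adjusted p = 0.0110). Mrpl53, another acquired large subunit protein, was at 39.7, 43.5 and 42.5 CPM on NCD and at 29.5, 31.0 and 32.3 CPM on HFD (log2 fold change -0.44 ± 0.09, adjusted p = 0.0197). Again the libraries of the groups were separated. Of the exon bases of Mrpl53, 88.0% are shared with Gm42688, a gene on the same strand that runs into it, with means of 2.54 CPM on NCD and 3.08 CPM on HFD in the cold.

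Mrps25, an acquired small subunit protein, was at 40.8, 39.7 and 48.6 CPM on NCD at 4 °C and at 26.1, 33.5 and 30.5 CPM on HFD at 4 °C, without overlap (log2 fold change -0.52 ± 0.11, adjusted p = 0.0275). Of its exon bases, 69.8% overlap Nr2c2 on the opposite strand, which had -0.04 ± 0.11 (adjusted p = 0.879). Mrpl24, which lies at the exit of the peptide tunnel in bacteria, was at 75.5, 69.3 and 82.0 CPM on NCD and at 53.4, 61.5 and 56.0 CPM on HFD (log2 fold change -0.41 ± 0.09, adjusted p = 0.0301). It overlaps Rrnad1 on the opposite strand in 26.3% of its exon bases, and Rrnad1 had -0.21 ± 0.18 (adjusted p = 0.543). Some genes that rose in the cold overlap others on the opposite strand as well. The shares of their exon bases are 33.4% for Mrpl43 (with Twnk) and 30.5% for Mrps18b (with Gm16279). They are 13.9% and 10.2% for Mrpl47 (with Ndufb5 and Actl6a) and 12.2% for Mrpl46 (with Mrps11). Whether the counting separated the strands is not given in the sources used here. The part of these overlaps in the values was not tested.

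The count of genes lower on HFD at 4 °C depended on single libraries far more than the median did. It was 0 without replicate 3 on NCD at 4 °C and without replicate 1 or 3 on HFD at 4 °C. Without replicate 2 of the latter group it was 9. The shares of all genes called in those fits are not given here. The large subunit median stayed between -0.37 and -0.19 and the small subunit median between -0.46 and -0.24 over the 12 fits. Adding the muscle marker score as a term gave 15 lower genes (4.94% of all genes), and leaving out the most muscle-rich library of each group gave 0 (1.45%) with medians of -0.36 and -0.43. With only the 6 libraries of the contrast 0 passed (0.586% of all genes), in batch 1 alone 0 (0.169%), and 2 of the 4 had a change over 0.5 on the log2 scale (2.69% of all genes). All 12 muscle genes had fitted changes below 0 in this contrast too, with 0 called. Other markers differed as well. All 6 adipocyte markers had fitted changes below 0 (median -0.55, 1 called), with summed levels of 13162 to 15394 CPM on NCD and 8148 to 10608 CPM on HFD, and 6 of 8 brown adipocyte markers were below 0 (median -0.27, 0 called), as were 4 of 4 nerve (median -0.26, 0 called) and 5 of 5 erythroid genes (median -0.23, 0 called). Changes were above 0 for 6 of 7 immune (median 0.60, 1 called) and 4 of 4 endothelial genes (median 0.37, 0 called, 3 without overlap). The part of these cell types in the result was not tested.

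Across the 4 groups together, 31 of the 78 genes passed the test with 3 degrees of freedom at an adjusted p under 0.05 (24.3% of all genes), and 1, Mrpl47, at an adjusted p under 0.001 (2.55% of all genes). The interaction of diet and temperature gave 0 calls in edgeR among the 78 genes and among all genes, with 5 of the 78 at an unadjusted p under 0.05 (6.52% of all genes), and DESeq2 gave 0 among the members. The fitted interaction was below 0 for 70 of the 78 genes (54.2% of all genes), with a median of -0.17, compared with -0.03 for all genes. It was also below 0 for 78 of 80 nuclear-encoded respiratory chain subunits (median -0.27) and 6 of 6 adipocyte markers (median -0.43). The same held for 12 of 12 muscle (median -0.81), 4 of 4 endothelial (median -0.16) and 5 of 8 brown adipocyte markers (median -0.41). For 63 of 77 cytosolic ribosomal proteins it was above 0 (median 0.16). It was above 0 as well for 5 of 7 immune (median 0.31), 3 of 4 nerve (median 0.20) and 5 of 5 erythroid genes (median 0.35). The part of these cell types was not tested. The median was -0.13 for the large and -0.22 for the small subunit. The lowest values were those of Mrpl12 (-1.23 ± 0.57, adjusted p = 0.766), Mrps15 and Mrps25 (-0.53 ± 0.16, adjusted p = 0.591), and the highest were Mrps18b (0.17, adjusted p = 0.895), Mrps18c (0.12, adjusted p = 0.939) and Mrpl44 (0.08, adjusted p = 0.948).

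Other members with known special functions did not pass in any of the 4 contrasts. Mrpl58, a hydrolase that frees peptides from stalled ribosomes, had log2 fold changes of 0.20, 0.12, -0.07 and -0.15 in the cold on NCD and on HFD, and with the diet in the warm and in the cold. Mrps12, the homologue of a decoding centre protein, had 0.39, 0.09, -0.06 and -0.36 in the same order, and Sars2, the mitochondrial seryl-tRNA synthetase that starts 172 bases upstream on the opposite strand, rose by 0.69 in the cold on NCD (SE 0.16, adjusted p = 0.0270). Mrpl18 had 0.25, 0.18, -0.20 and -0.27, Mrpl42 had 0.25, 0.07, -0.22 and -0.40, and Mrps35 had 0.29, -0.03, -0.04 and -0.36. Mrps30, which sits in the large subunit, had 0.28, 0.11, -0.12 and -0.29. Mrps36, which is not a ribosomal protein, had 0.25, 0.02, -0.11 and -0.34. Members with a bacterial homologue and acquired members had medians of 0.16 and 0.26 in the cold on NCD, -0.00 and 0.04 in the cold on HFD, -0.16 and -0.15 with HFD at 22 °C, and -0.34 and -0.36 with HFD at 4 °C.

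Genes that build and serve the mitoribosome were examined beside it. Of 31 tested assembly and rRNA modification factors (32 listed), 4 rose and 0 fell in the cold on NCD (4.74% and 2.68% of all genes), and 4 rose and 1 fell in the cold on HFD (6.90% and 4.57% of all genes). Tfb1m, the dimethyltransferase of the small ribosomal RNA, rose by 0.61 ± 0.12 (adjusted p = 0.0108) on NCD and 0.48 ± 0.12 (adjusted p = 0.0238) on HFD. Mrm3, a methyltransferase of the large ribosomal RNA, rose by 0.61 ± 0.11 (adjusted p = 0.00966) and 0.49 ± 0.11 (adjusted p = 0.0178). The RNA-binding factor Fastkd2 rose by 0.56 ± 0.11 (adjusted p = 0.0131) and 0.61 ± 0.11 (adjusted p = 0.00674), Mtg2, a GTPase of large subunit assembly, rose on NCD, Dhx30 rose on HFD, and Spg7, a subunit of the inner membrane protease that processes a large subunit protein, fell on HFD. On HFD at 4 °C 0 passed (2.23% of all genes rose and 3.07% fell), with a median of -0.27.

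The shares of all genes called, against which these counts are read, were, for a rise and for a fall, 4.74% and 2.68% on NCD with cold exposure, 6.90% and 4.57% on HFD with cold exposure, and 2.23% and 3.07% for HFD at 4 °C. Of 16 tested translation factors (17 listed), 2 rose in the cold on NCD, the elongation factor Gfm1 (0.46 ± 0.11, adjusted p = 0.0281) and the recycling factor Mrrf (0.60 ± 0.13, adjusted p = 0.0162), 0 changed in the cold on HFD, and Gfm2 fell on HFD at 4 °C (-0.41 ± 0.11, adjusted p = 0.0488). Among 19 tested aminoacyl-tRNA synthetases (20 listed), Ears2 and Sars2 rose in the cold on NCD, Lars2 was among those that fell in the cold on HFD, and Ears2, Hars2 and Rars2 were lower on HFD at 4 °C. Of 13 genes for transcription and replication of mitochondrial DNA, 3 rose in the cold on NCD and 2 on HFD, among them Tfam, which packages and transcribes that DNA (0.65 and 0.61, SE 0.08 for each, adjusted p = 0.00150 and 0.00162), and Polrmt, its RNA polymerase (0.54 and 0.35). Mgme1, an exonuclease, fell in the cold on HFD by 1.04 ± 0.21 on the log2 scale (adjusted p = 0.00919). The 5 mitoribosomal proteins with other names, Dap3, Aurkaip1, Chchd1, Ptcd3 and Gadd45gip1, had 0 calls and medians of 0.08, -0.05, -0.16 and -0.37 in the 4 contrasts.

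The respiratory chain and the cytosolic ribosome gave a scale for these values. Of 80 tested nuclear-encoded respiratory chain subunits (81 in the table), 0 passed in the cold on NCD, with a median of 0.03, and 2 fell in the cold on HFD (4.57% of all genes), with a median of -0.21 and 75 of 80 below 0. With HFD at 22 °C 0 passed (1.01% of all genes rose and 1.15% fell), with a median of -0.09 and 61 of 80 below 0. On HFD at 4 °C 3 fell (3.07% of all genes), with a median of -0.37 and 80 of 80 below 0. Of 77 cytosolic ribosomal proteins, 0 rose and 1 fell in the cold on NCD (median -0.00, 2.68% of all genes fell), 8 rose in the cold on HFD (median 0.13, 6.90% of all genes rose), 1 fell with HFD at 22 °C (median -0.07, 1.15% of all genes fell) and 1 rose on HFD at 4 °C (median 0.08, 2.23% of all genes rose). The differences between these groups of genes were not tested, and the contrasts share libraries as described.

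**Figure D5:**
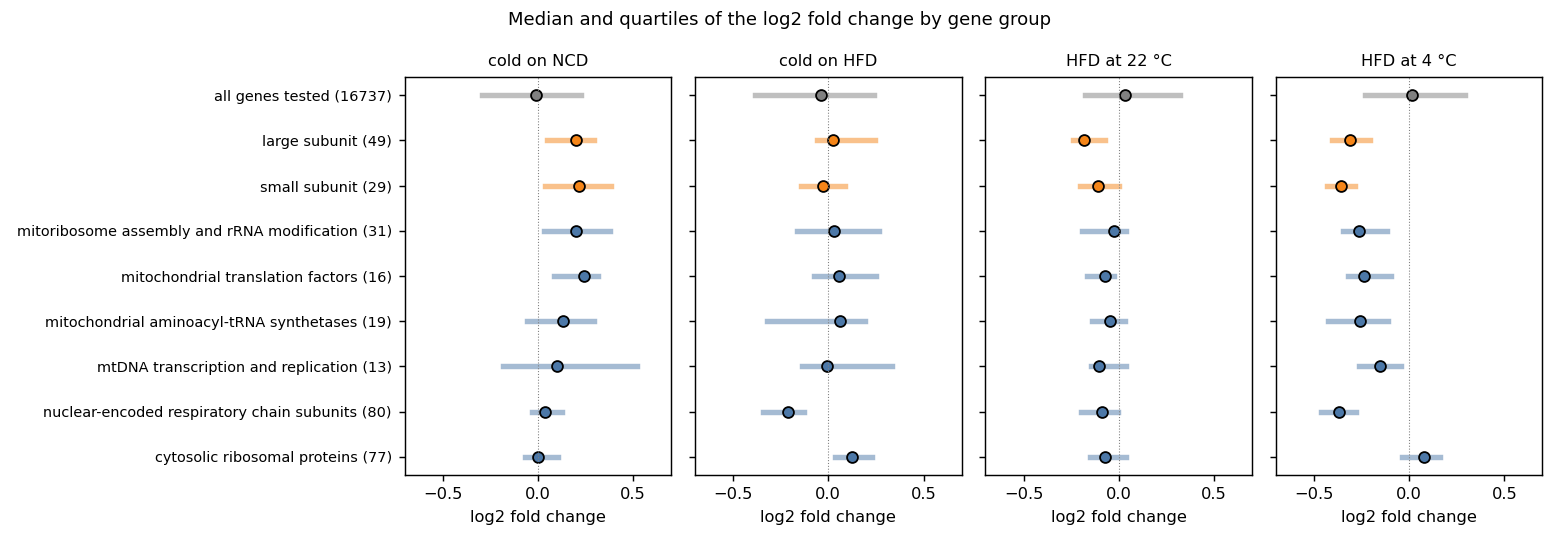
Median (points) and quartiles (bars) of the log2 fold change by gene group in the 4 contrasts, with the number of genes tested in parentheses. For HFD at 4 °C the medians of both subunits (-0.31 and -0.36) and of the nuclear-encoded respiratory chain subunits (-0.37) lie below 0, and that of the cytosolic ribosomal proteins (0.08) lies above.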

How the data were processed

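Gene counts of 12 iBAT libraries were used. As deposited by the authors, values are whole-number counts per gene, not normalized, after adapter trimming with cutadapt and estimation with salmon against GENCODE M22 and RNAcentral (GRCm38). Salmon divides shared reads between transcripts by estimation, and the strand setting is not given in the sources used here. The 61210 genes were filtered with filterByExpr (minimum count 10) and fitted with edgeR 4.0.16 (R 4.3.3) in 1 quasi-likelihood model of 4 group means over all 12 libraries, with TMM scaling and Benjamini-Hochberg adjustment over the 16737 genes tested. Scripts were tested on simulated data. Levels are CPM from these counts, and DESeq2 1.42.0 was an alternative.

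Members and gene lists were chosen with earlier results of these data known. Named genes were those called in a contrast, the 3 highest and 3 lowest fitted values per contrast and for the interaction, the 3 highest and lowest levels per kb, and a list of members with known functions. Batch 2 held 1 library per group, so within it no test was possible. Same-numbered libraries deviated together between temperatures, with r of 0.219 to 0.456 on NCD and 0.155 to 0.386 on HFD across genes. Other pairs had -0.289 to 0.0439 on NCD. On HFD they had 0.106 and 0.134 within batch 1, near the 0.155 and 0.217 of its same-numbered pairs, so pairing and batch cannot be told apart there. On each diet the highest r joined the most muscle-rich libraries. A block on the number was fitted as an alternative only. Between diets some r of same-numbered libraries were negative, and the numbers there name libraries only. Alternatives covered scaling, filter, fold threshold, batch, muscle score, block and leaving out libraries. The result of 1 listed gene is not reported here.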

Additional observations from a re-analysis of the deposited data

How the results depend on the processing

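No called gene changed direction in the fits without 1 library or in batch 1 alone. The subunit medians in the cold on HFD, which were near 0, took either sign. Counts below are members called, and shares of all genes are given above for some of these fits only. Where no share is given, a count does not show whether members differ from other genes. In batch 1 alone, 2 rose in the cold on NCD, 0 rose and 0 fell in the cold on HFD, 0 were lower on HFD at 4 °C, and 4 passed the 4-group test. Without the most muscle-rich library of each group, chosen after seeing the data, these were 1, 0, 1, 0 and 6. A fold threshold of 0.5 (log2) left 4 higher in the cold on HFD and 2 lower on HFD at 4 °C, and fitting only the libraries of the contrast left 2 and 0. With the muscle score as a term, 3 were lower with HFD at 22 °C and 15 on HFD at 4 °C, and with DESeq2 5 and 24. Without a filter 1 was lower on HFD at 4 °C, and at an adjusted p under 0.001 the 4-group test gave 1. Leaving out 1 library at a time gave 3 to 10 higher in the cold on NCD, 1 to 9 higher and 1 to 3 lower in the cold on HFD, 0 to 1 lower with HFD at 22 °C, 0 to 9 lower on HFD at 4 °C, and 19 to 32 in the 4-group test. The large and small subunit medians then ranged from 0.14 to 0.27 and from 0.17 to 0.28 in the cold on NCD, from -0.07 to 0.11 and from -0.090 to 0.12 in the cold on HFD, from -0.25 to -0.12 and from -0.18 to -0.06 with HFD at 22 °C, and from -0.37 to -0.19 and from -0.46 to -0.24 on HFD at 4 °C. Between the single libraries of batch 2 the medians were 0.35 (large) and 0.34 (small) in the cold on NCD, 0.22 (large) in the cold on HFD and -0.22 (small) with HFD at 22 °C. The causes were not tested. With the replicate block within diet, 8 rose in the cold on NCD, and 7 rose and 3 fell in the cold on HFD. The block changed the calls of Mrpl1, Mrpl55, Mrpl20 and Mrps18a given above and no other call of the named genes in the cold contrasts.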
